A study of Mus musculus with 10 samples.

Results

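The genes described here are 9 apolipoprotein genes (Apoa1, Apoa2, Apoa4, Apoa5, Apob, Apoc1, Apoc3, Apoe and Apom) and Mttp, the microsomal triglyceride transfer protein. They were chosen by name, matched to Ensembl identifiers through the GENCODE M21 annotation, and make up 10 of the 43629 genes in the table of liver counts. All 10 passed the filter on low counts. In livers of mice with cancer cachexia, Apoa5 was higher than in livers of tumour-bearing mice without cachexia, with a mean of 2454 against 1470 CPM (counts scaled to a common library size), and the groups did not overlap. None of the other 9 genes passed the test across all genes.

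Livers came from adult male mice of an inducible genetic model of lung cancer, which carries Lkb1 flox/flox and was backcrossed to FVB, in which intranasal adenovirus encoding Cre under the CMV promoter starts the tumours. Every mouse in both groups had the same genotype and received the virus, so no liver of a tumour-free mouse enters the comparison. The CMV promoter is not restricted to a cell type, and Cre reaches the lung by its route. The study called mice cachectic (CACS) or non-cachectic (NCACS) by their loss of body weight from its peak. The labelled weight change was between -3 and -14% in the 5 NCACS mice and between -29 and -33% in the 5 CACS mice, and each liver is named below by its mouse number, 11 to 15 for NCACS and 16 to 20 for CACS.

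Apolipoproteins are the protein coat of the particles that carry triglyceride and cholesterol in blood. The hepatocyte folds ApoB around lipid that Mttp transfers to it in the endoplasmic reticulum, which gives very-low-density lipoprotein (VLDL), and separately secretes ApoA1 and ApoA2, which take up lipid to form high-density lipoprotein (HDL). The smaller proteins move between particles, where ApoA5 raises and ApoC3 lowers the breakdown of triglyceride by lipoprotein lipase, and ApoE is a ligand for the receptors that return particles to the liver.

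Apoa1, Apoc3, Apoa4 and Apoa5 lie side by side on chromosome 9, and Apoe and Apoc1 on chromosome 7 (GRCm38). The bases upstream of 2 genes are shown, Apoa5 because it was the gene that passed the test and Apoa2 because it had the highest level per length. Each run is the 250 bases before a RefSeq start (GRCm38.p6), 5′ to 3′ on the gene's strand, and capitals mark TATAAA, the core of a TATA box, and TGACG, the half-site of a cAMP response element.
Apoa5, chr9:46268358-46268607, plus strand: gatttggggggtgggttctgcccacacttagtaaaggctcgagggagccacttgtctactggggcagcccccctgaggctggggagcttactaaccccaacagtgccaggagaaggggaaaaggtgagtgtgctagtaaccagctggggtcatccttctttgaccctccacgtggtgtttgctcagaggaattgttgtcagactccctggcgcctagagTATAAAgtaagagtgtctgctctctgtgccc
Apoa2, chr1:171224804-171225053, plus strand: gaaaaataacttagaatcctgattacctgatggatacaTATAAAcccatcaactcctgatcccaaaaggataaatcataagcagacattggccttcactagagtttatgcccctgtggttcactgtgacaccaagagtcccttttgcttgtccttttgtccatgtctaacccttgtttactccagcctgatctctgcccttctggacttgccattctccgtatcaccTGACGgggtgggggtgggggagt
In the Apoa5 run TATAAA starts 31 bases before the RefSeq start used there. Another RefSeq start of Apoa5, with the window chr9:46268383-46268632, has the same TATAAA 56 bases before it. In the Apoa2 run TGACG starts 23 bases before the start used there. The promoter table matched 8 of the 10 genes, in 12 windows, with no entry used for Apoc1 and Apoc3. On either strand, TATAAA was found in 5 of the 12 windows, from 4 genes (Apoa2, Apoa5, Apob and Apoe), and in 12.4% of all 32851 windows of this length. TGACG was found in 2 of the 12 windows (Apoa2 and Mttp) and in 17.8% of all windows. AGGTCA, a half-site of nuclear receptors, was found in 1 window, of Apoa2, and in 14.02% of all, and CAAAGTCCA, a form of the HNF4 site, in 0 of the 12 and in 0.384% of all. A match describes these letters and not a bound site.

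Each liver gave between 31459179 and 40746178 counts, with overlapping ranges in the groups (31945328 to 38306888 in NCACS, 31459179 to 40746178 in CACS). Of 14143 genes tested with edgeR's quasi-likelihood test, 538 (3.8%) had a Benjamini-Hochberg adjusted p-value under 0.05, 267 (1.89%) higher and 271 (1.92%) lower in CACS livers. At an unadjusted p-value under 0.05 there were 3051 genes (21.6%), and for 1000 genes (7.07%) the groups did not overlap. The tissue carried hepatocyte markers: of 7 listed, 6 were matched, 5 had a log2 fold change above 0 and 1, the transcription factor Hnf4a, passed the test, with a summed level of 61675 to 111308 CPM in NCACS and 109190 to 129566 CPM in CACS livers. Of 7 Kupffer cell markers, all 7 had a log2 fold change below 0 and 1, Cd5l, passed (-0.90, adjusted p = 0.0374), with a summed level of 170 to 292 CPM in NCACS and 104 to 212 CPM in CACS livers. Of the endothelial, stellate, cholangiocyte, lymphocyte, neutrophil, erythroid, enterocyte and lung epithelium lists, 1 gene passed, the surfactant gene Sftpa1, at 1.26 to 1.54 CPM in NCACS and 1.72 to 5.65 CPM in CACS livers. Limma-voom called 0 of the lung list, whose other tested genes had log2 fold changes of 0.44 (Sftpc) and -0.97 (Scgb1a1). DESeq2, which called 9.8% of all genes tested, called the 2 tested neutrophil markers, S100a8 (edgeR log2 fold change -1.79) and S100a9 (-1.66). In bulk RNA, fewer cells of a type and less RNA per cell cannot be told apart.

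Together the 10 genes took 4.46 ± 0.367% of all counts in NCACS livers and 4.71 ± 0.406% in CACS livers (SD, n = 5 each), a difference of 0.258 percentage points that is smaller than the SD within either group. Without mouse 19 the difference was 0.0864 points and without mouse 13 it was 0.115 points. Levels of different genes were compared as CPM per kilobase of exon. On that scale the mean over all 10 livers was highest for Apoa2 (18173), followed by Apoa1 (7673), Apoe (6522), Apoc1 (4424), Apoc3 (1790), Apoa5 (778), Apob (359), Apom (246), Apoa4 (53.3) and Mttp (42.8). The livers' ranges overlapped between Apoa1 and Apoe, Apoe and Apoc1, Apoa5 and Apob, Apob and Apom, and Apoa4 and Mttp. These ranges pool the livers, and the order of such neighbours within each liver was not tested. Divided by coding length instead, Apoa2 stayed at rank 1, Apoc3 at 5 and Apoa5 at 6, and the other 7 genes changed rank.

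**Figure D1:**
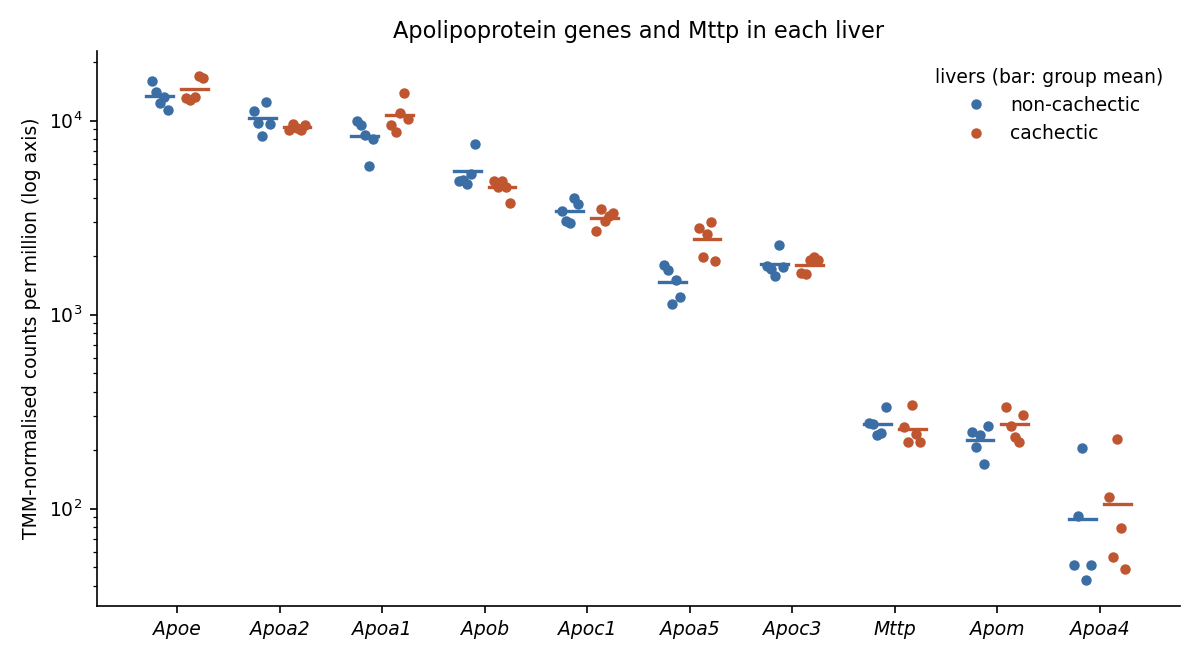
TMM-normalised CPM of each gene in each liver, on a log axis, with NCACS livers in blue, CACS livers in orange and a bar at each group's mean (n = 5). Apoa5 is the one gene whose groups do not overlap, and Apoa4 has the widest spread, from 42.6 to 228 CPM.

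ApoA5 is secreted by the liver in small amounts and promotes the clearance of triglyceride-rich particles. Apoa5 (ENSMUSG00000032079, chromosome 9, 46268633 to 46271919, plus strand) was at 1792, 1692, 1130, 1504 and 1231 CPM in NCACS mice 11 to 15 and at 2791, 1982, 2603, 3015 and 1878 CPM in CACS mice 16 to 20. Every CACS liver was above every NCACS liver, although the lowest CACS liver, mouse 20, was close to the highest NCACS liver, mouse 11. The means were 1470 ± 286 and 2454 ± 501 CPM (SD, n = 5 each), a ratio of 1.67. The log2 fold change was 0.74 (SE 0.184, 95% interval 0.34 to 1.14), and edgeR's adjusted p-value over all genes was 0.0487, just under the threshold. The two-sided exact permutation test over the 252 assignments of the livers gave p = 0.00794, the smallest it can give. That value follows from the groups not overlapping and adds nothing to it, and it is unadjusted, 1 of 10 such tests. Counting 1 of 10 genes past the adjusted threshold stands beside 3.8% of all genes tested, and 1 of 10 without overlap beside 7.07%.

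The size of the Apoa5 difference was stable, but its call was not. With other tools, normalizations and filters the log2 fold change was 0.73 to 0.75, and the adjusted p-value was from 0.00175 (DESeq2) to 0.0641 (no filter on low counts), with the call lost in 4 of 9 settings. Over fits without 1 mouse the estimate was 0.66 to 0.82, and the call was lost for 9 of 10 mice, with adjusted p-values from 0.0452 to 0.105 and mouse 17 as the one whose removal kept it. The direction was the same in every one of those fits. The summed level of the hepatocyte markers is given above for both groups, and its part in the Apoa5 difference was not tested.

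**Figure D2:**
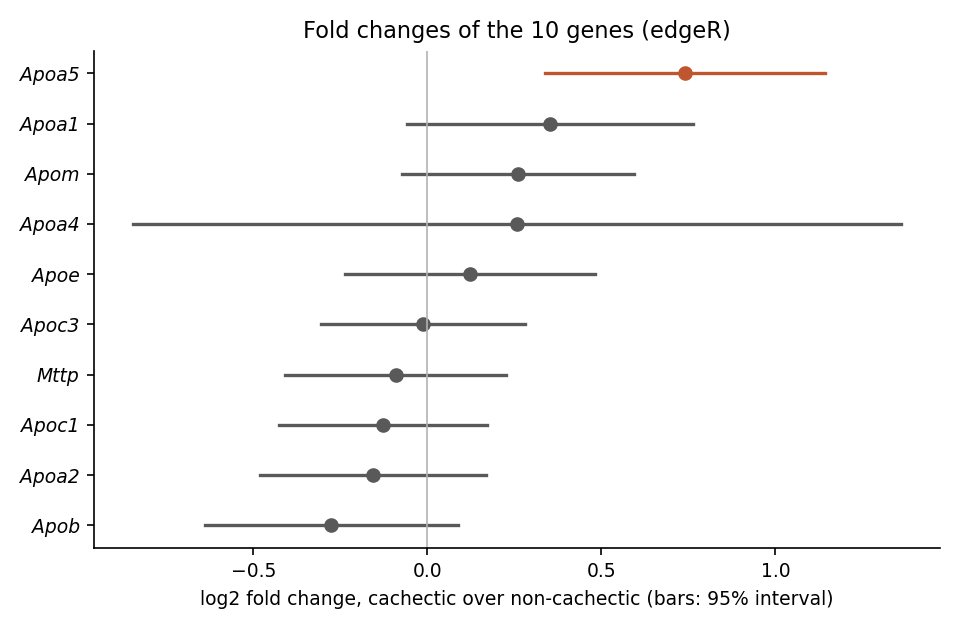
Log2 fold change of each gene in CACS over NCACS livers from edgeR, with its 95% interval, and orange for an adjusted p-value under 0.05. Only the interval of Apoa5, 0.34 to 1.14, lies wholly on one side of 0, and the interval of Apoa4, -0.85 to 1.36, is the widest.

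ApoB is the structural protein of VLDL, and the unedited and edited forms of its mRNA cannot be told apart in these counts. Apob was at 4876, 4930, 4684, 5281 and 7604 CPM in NCACS mice 11 to 15 and at 4856, 4536, 4864, 4569 and 3779 CPM in CACS mice 16 to 20. Mouse 15 stood above the rest of its group and mouse 20 below the rest of its own, and the groups overlapped in the range of 4684 to 4864 CPM. The means were 5475 ± 1209 and 4521 ± 442 CPM (SD, n = 5 each), and the log2 fold change of -0.28 (SE 0.166, 95% interval -0.64 to 0.09) did not pass edgeR's test (adjusted p = 0.358). Without mouse 15 it was -0.13 (adjusted p = 0.659). The exact permutation test gave an unadjusted p = 0.0397, 1 of 10 such tests, which became 0.119 without mouse 15 and 0.111 with raw library totals.

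Mttp, which loads lipid onto ApoB, was at 277, 273, 240, 245 and 335 CPM in NCACS mice 11 to 15 and at 262, 220, 343, 241 and 220 CPM in CACS mice 16 to 20. The groups overlapped over nearly their whole range. The log2 fold change was -0.09 (SE 0.145, 95% interval -0.41 to 0.23, edgeR adjusted p = 0.767).

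Of 27 other genes of ApoB particle assembly and export, 0 passed edgeR's adjusted threshold in either direction, beside 3.8% of all genes tested. The list includes the COPII coat, its cargo receptors and the enzymes of triglyceride synthesis. An unadjusted p-value under 0.05 was found for 6 of the 27 genes, beside 21.6% of all genes. DESeq2 called 3 of them, beside 9.8% of all genes tested with it, and limma-voom 0, beside 3.6%. Dgat1, which makes triglyceride from diacylglycerol, had the smallest p-value of the list, with a log2 fold change of 0.40 (edgeR adjusted p = 0.0713, DESeq2 adjusted p = 0.0282) and a range of 19.95 to 24.2 CPM in NCACS and 24.5 to 36.5 CPM in CACS livers, which do not overlap. The groups did not overlap in 2 of the 27 genes, beside 7.07% of all genes tested. The other of these, Pla2g12b, was lower in CACS livers (log2 fold change -0.51, edgeR adjusted p = 0.0819). The list's median log2 fold change was -0.06, beside -0.01 over all genes tested.

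ApoA1 is the main protein of HDL. Apoa1 was at 9900, 9477, 8430, 5856 and 8005 CPM in NCACS mice 11 to 15 and at 9508, 8714, 10911, 13794 and 10244 CPM in CACS mice 16 to 20. All 5 CACS livers were above the NCACS median, and mice 16 and 17 lay within the NCACS range. The log2 fold change of 0.35 (SE 0.188, 95% interval -0.06 to 0.76) did not pass (edgeR adjusted p = 0.303). The exact permutation test gave p = 0.0556, which became 0.0317 without mouse 11 and 0.0397 without mouse 17. Without any other single mouse it was 0.0556 to 0.135.

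Apoa2, the second protein of HDL, was at 11237, 9714, 8362, 12537 and 9597 CPM in NCACS mice and at 8908, 9607, 9134, 8979 and 9514 CPM in CACS mice. The CACS livers lay close together, with a coefficient of variation of 3.42% beside 15.7% in NCACS, and all 5 were inside the NCACS range. The log2 fold change was -0.16 (SE 0.149, 95% interval -0.48 to 0.17, edgeR adjusted p = 0.580). The exact permutation test gave p = 0.246, which became 0.0159 without mouse 13 and 0.214 to 0.5 without any other single mouse. Without mouse 13 the edgeR adjusted p was 0.360. Apom, which carries sphingosine-1-phosphate on HDL, was at 249, 208, 241, 169 and 268 CPM in NCACS mice and at 333, 268, 233, 221 and 304 CPM in CACS mice. The groups overlapped, and the log2 fold change was 0.26 (SE 0.152, 95% interval -0.07 to 0.59, edgeR adjusted p = 0.342).

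Among 11 genes that lipidate, remodel or ride on HDL, 0 were higher and 1 was lower by the adjusted threshold. Over all genes tested, 1.89% were higher and 1.92% lower. Of the 11 genes, 3 were under 0.05 unadjusted, beside 21.6% of all genes. The gene past the threshold was Pon3, a paraoxonase carried on HDL, which was at 64.7 to 79.5 CPM in NCACS and 44.1 to 63.4 CPM in CACS livers, without overlap. It was the 1 of the 11 without overlap, beside 7.07% of all genes tested. Pon3 fell by 0.44 on the log2 scale (edgeR adjusted p = 0.0407).

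Apoc1 and Apoc3 encode small proteins that slow the breakdown and uptake of triglyceride-rich particles. Apoc3 was at 1790, 1710, 1576, 2272 and 1767 CPM in NCACS mice and at 1629, 1611, 1916, 1974 and 1908 CPM in CACS mice. The group means, 1823 ± 264 and 1808 ± 173 CPM (SD, n = 5 each), had the ratio closest to 1 of the 10 genes, and the log2 fold change was -0.01 (SE 0.134, 95% interval -0.31 to 0.28, edgeR adjusted p = 0.970), a value whose sign turned when single mice were left out. Apoc1 was at 3439, 3052, 2977, 4003 and 3715 CPM in NCACS mice and at 2688, 3485, 3024, 3206 and 3330 CPM in CACS mice. The groups overlapped, with a log2 fold change of -0.13 (SE 0.137, 95% interval -0.43 to 0.17, edgeR adjusted p = 0.634).

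Apoe, the receptor ligand, was at 16011, 13956, 12274, 13201 and 11304 CPM in NCACS mice and at 13073, 12718, 13274, 16980 and 16658 CPM in CACS mice. Mice 19 and 20 were the highest of their group and mouse 11 the highest of the other, and the ranges overlapped. The log2 fold change was 0.12 (SE 0.165, 95% interval -0.24 to 0.48, edgeR adjusted p = 0.716). Macrophages also make ApoE, and the Kupffer cell markers given above were lower in CACS livers by their point estimates. Their part in the Apoe level was not tested.

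Apoa4 is made mainly in the intestine and at a lower level in mouse liver. It was at 51.4, 91.8, 204, 42.6 and 50.9 CPM in NCACS mice and at 115, 56.2, 228, 79.8 and 48.6 CPM in CACS mice, with mice 13 and 18 far above the others of their groups. Its coefficient of variation, 76.7% in NCACS and 69.3% in CACS livers, was the largest of the 10 genes. The log2 fold change was 0.26 (SE 0.506, 95% interval -0.85 to 1.36, edgeR adjusted p = 0.814), which became -0.23 without mouse 18. Every liver had at least 1415 counts of Apoa4, and of 6 enterocyte markers, Sis and Alpi were at 0 in all 10 livers and Vil1 and Cdh17 were too low to be tested. The 2 tested, Fabp2 (28.2 to 53.0 CPM in NCACS, 23.9 to 112 CPM in CACS) and Lgals4 (7.86 to 25.9 and 14.5 to 41.0 CPM), had log2 fold changes of 0.32 (edgeR adjusted p = 0.618) and 0.40 (adjusted p = 0.557), and 0 passed in DESeq2 or unadjusted. Their part in the Apoa4 level was not tested.

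Of the 4 genes in the chromosome 9 cluster, Apoa5 alone passed the test. Measured from the start of Apoa5, the start of Apoa1 lies at -40.053 kb, that of Apoc3 at -32.997 kb and that of Apoa4 at -27.937 kb. Within each liver, the log2 ratio of Apoa5 to Apoc3 was higher by 0.74 in CACS livers (two-sided exact permutation p = 0.0238, 0.0714 adjusted over 3 ratios), that of Apoa5 to Apoa1 by 0.38 (exact permutation p = 0.0873, adjusted 0.131) and that of Apoa5 to Apoa4 by 0.45 (exact permutation p = 0.468, adjusted 0.468). None of the ratios passed after adjustment, and they were chosen after the values had been seen.

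Of 8 other genes beside the cluster, 1 passed edgeR's adjusted threshold, the kinase gene Sik3, whose log2 fold change was 0.40 (adjusted p = 0.0348), and its levels of 54.2 to 65.1 CPM in NCACS and 67.5 to 87.2 CPM in CACS livers did not overlap. The genes nearest to Apoa5, Zpr1 at 4.431 kb and Bud13 at 14.375 kb, had log2 fold changes of 0.89 (95% interval 0.38 to 1.39, adjusted p = 0.0567) and 0.72 (95% interval 0.31 to 1.12, adjusted p = 0.0557), neither past the threshold in edgeR. DESeq2 gave them adjusted p-values of 0.00636 and 0.00918. Zpr1 and Bud13 are named here for their position, after their values had been seen. DESeq2 called 4 of the 8 neighbours, beside 9.8% of all genes tested with it. The others it called were Sik3 (DESeq2 adjusted p = 0.00278) and Sidt2, at -313.375 kb (DESeq2 adjusted p = 0.0157). In 2 of the 8 the groups did not overlap, beside 7.07% of all genes tested. Of the 8 neighbours, 5 had an unadjusted p-value under 0.05, beside 21.6% of all genes tested, and the median log2 fold change was 0.32. The 1 of 8 past the adjusted threshold stands beside 3.8% of all genes tested.

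**Figure D3:**
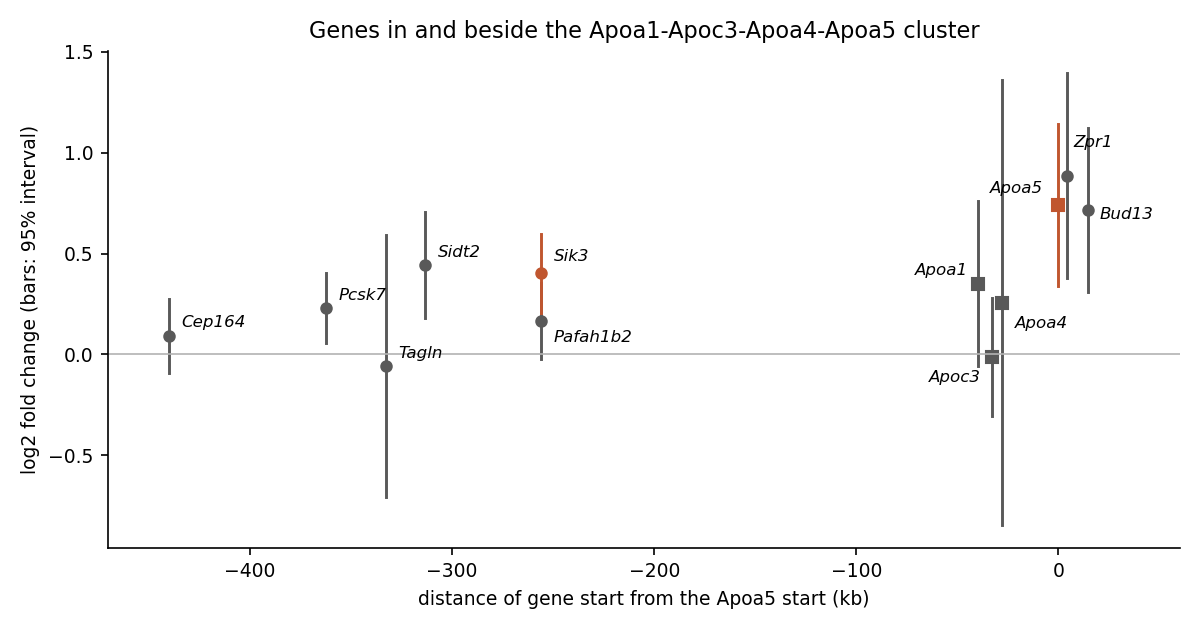
Log2 fold change in CACS over NCACS livers, with 95% intervals, against the distance in kb of each gene's start from the Apoa5 start (squares are the apolipoprotein genes, circles their neighbours, orange an adjusted p-value under 0.05). Apoa5 and the genes within 14.375 kb downstream of it have estimates of 0.72 to 0.89, of which only that of Apoa5 passes. Farther off, estimates are 0.26 for Apoa4, 0.35 for Apoa1, 0.40 for Sik3 at -255.813 kb and 0.44 for Sidt2 at -313.375 kb. Apoc3, -32.997 kb away, sits at -0.01, and Tagln, at -332.575 kb, at -0.06.

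Beside Apoe and Apoc1 on chromosome 7, edgeR called 0 of 6 neighbouring genes, DESeq2 and limma-voom called 0, and 0 reached 0.05 unadjusted. The smallest p-value belonged to Tomm40, the channel of the mitochondrial outer membrane, with a log2 fold change of 0.36 (edgeR adjusted p = 0.328). Apoc2 and Apoc4, in the same cluster, overlap in the annotation, so their counts depend on how reads were assigned. Their log2 fold changes were -0.19 (adjusted p = 0.352) and 0.13 (adjusted p = 0.536).

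Of 9 other apolipoprotein genes tested, 0 were higher and 1 lower by the adjusted threshold, beside 1.89% and 1.92% of all genes tested. The lower one was Apol7a of the apolipoprotein L family, a group of near-identical copies between which reads can be split. Apol7a was at 130 to 187 CPM in NCACS and 94.7 to 123 CPM in CACS livers, without overlap, and fell by 0.52 on the log2 scale (edgeR adjusted p = 0.0391). It was the 1 of the 9 without overlap, beside 7.07% of all genes tested. Apol9a and Apol9b had log2 fold changes of -1.02 and -0.90 (edgeR adjusted p = 0.0888 and 0.0553). Of the 9, 3 were under 0.05 unadjusted, beside 21.6% of all genes, and DESeq2 called 3, beside 9.8%.

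Among 14 genes tested of uptake receptors and their regulators, edgeR called 0, DESeq2 1 and limma-voom 0. Over all genes tested these tools called 3.8%, 9.8% and 3.6%, in that order. Of the 14 genes, 3 were under 0.05 unadjusted, beside 21.6% of all genes. Sorl1, a sorting receptor, had the smallest p-value, with 4.81 to 11.7 CPM in NCACS and 3.09 to 6.56 CPM in CACS livers and a log2 fold change of -0.93 (edgeR adjusted p = 0.0710, DESeq2 adjusted p = 0.0102). Of 9 genes that control lipoprotein lipase, edgeR, DESeq2 and limma-voom called 0, with 3 under 0.05 unadjusted, beside the same 21.6%. Lmf1, which the lipase needs to fold, had the smallest p-value, with a log2 fold change of -0.36 (edgeR adjusted p = 0.146).

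Of 27 transcriptional regulators (transcription factors and cofactors) known to act on apolipoprotein genes, 2 passed edgeR's threshold and both were higher in CACS livers. This 7.41% stands beside 3.8% of all genes tested. At an unadjusted p-value under 0.05 there were 7 of the 27, beside 21.6% of all genes. Foxo1, a factor held inactive by insulin, was at 25.6 to 40.7 CPM in NCACS and 47.9 to 61.9 CPM in CACS livers, with a log2 fold change of 0.57 (adjusted p = 0.0375). Hnf4a, which drives much of hepatocyte gene expression and is also in the list of hepatocyte markers, was at 568 to 688 CPM in NCACS and 729 to 1007 CPM in CACS livers, with a log2 fold change of 0.50 (adjusted p = 0.0435). In both genes the groups did not overlap, which makes 2 of the 27, beside 7.07% of all genes tested.

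Over all of these lists, 111 genes were tested, 3 passed higher and 2 lower, or 4.50% beside 3.8% of all genes tested. At an unadjusted p-value under 0.05 there were 30 of the 111 genes, beside 21.6% of all genes tested, and in 8 of the 111 the groups did not overlap, beside 7.07%. The median log2 fold change was -0.04. The number past the threshold moved from 5 to 16 under DESeq2, which called 9.8% of all genes, and to between 0 and 5 when single mice were left out. Over the 10 fits without 1 mouse the call was lost in 9 for Foxo1 (highest edgeR adjusted p = 0.0784), 9 for Hnf4a (0.0974), 9 for Pon3 (0.0924), 8 for Sik3 (0.0746) and 7 for Apol7a (0.0878), with the direction kept in each.

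**Figure D4:**
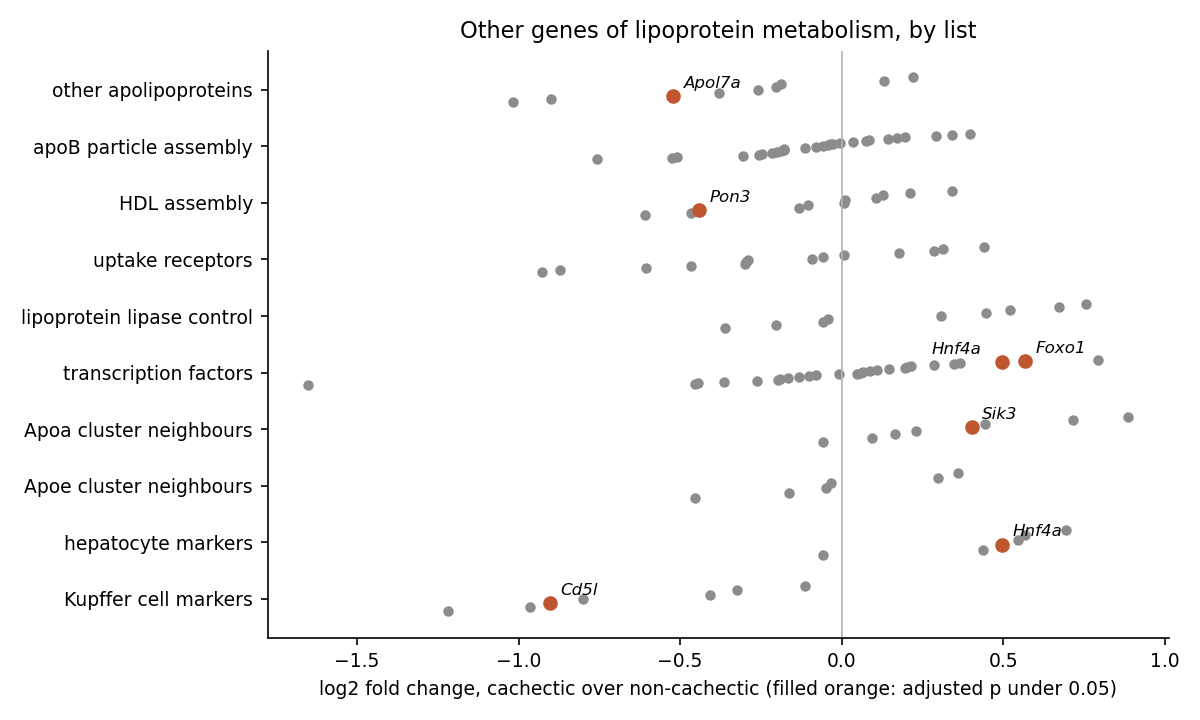
Log2 fold change in CACS over NCACS livers of each tested gene, by list, with genes past the adjusted threshold in orange and named. The 5 genes of the pathway lists in orange range from Apol7a at -0.52 to Foxo1 at 0.57, and all 7 Kupffer cell markers lie below 0.

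The genes whose levels followed Apob and Apoa5 most closely from liver to liver were found among 9234 genes by the root mean square difference of centred log2 CPM over the 10 livers. For Apob they were Nt5dc1 (0.0822), the identifier ENSMUSG00000051412 (0.0918) and Lgals8, which encodes a galectin (0.0928), beside a median of 0.318 over all those genes. Like Apob, each was highest in mouse 15, at 17.6, 23.9 and 185 CPM in that order, so the likeness rests in part on 1 liver. For Apoa5 they were Ccp110, a centriole gene (0.182), Ildr2 (0.1998) and Qtrt2, a subunit of a tRNA-modifying enzyme (0.208), beside a median of 0.495. The measure takes in the difference between the groups, so it favours genes with a like fold change. The root mean square of a gene's own centred values was 0.241 for Apob and 0.454 for Apoa5. The log2 fold changes were 0.62 for Ccp110 (edgeR adjusted p = 0.0770, groups overlapping), 0.56 for Ildr2 (adjusted p = 0.0483) and 0.60 for Qtrt2 (adjusted p = 0.0384).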

How the data were processed

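Liver RNA of 10 male mice (5 NCACS, 5 CACS) was sequenced as single-end, stranded poly(A) libraries. The authors aligned reads to GRCm38 with STAR 2.4.1d in 2-pass mode, counted them per Ensembl gene with HTSeq 0.6.1 and deposited raw counts without normalization, and the annotation release and strand setting of the counting are not given in the sources used here. The members and lists were chosen with earlier results of these data known. Groups, mouse numbers and weight changes came from the labels, which give no batch, and part of the genotype is not reported here. The study's batch correction was not repeated, and its other libraries were not analysed here.

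Symbols and exon lengths were taken from GENCODE M21 (also GRCm38), and 1167 of 43629 identifiers had no symbol in it. Counts were filtered with filterByExpr, scaled with TMM factors and fitted with the quasi-likelihood model of edgeR 4.0.16 (R 4.3.3), and p-values were adjusted by Benjamini-Hochberg across the whole tested table, with a threshold of 0.05. The study used DESeq2, which is an alternative here (1.42.0), as is limma-voom (3.58.1). Log2 CPM had a prior count of 2 and served for the exact permutation tests. Python 3.11.15 and pandas 2.3.3 were used for the summaries. The fits were tested on simulated counts in which chosen genes changed by a larger fold than any of the 10 genes did here. That run does not show how the fits perform at smaller differences. Pairs of livers within a group differed by more than sampling noise: chi-square divided by its degrees of freedom was at least 46.1 for every pair. Counts ranged from 31459179 to 40746178 per liver, and with at least 1415 counts per liver in each of the 10 genes the spread between mice, and not counting error, sets the precision. Named genes were all 10 members, every listed gene past the threshold, the gene with the smallest p-value of each list, and the 3 genes nearest to Apob and to the member with the smallest p-value, with a mean of at least 5 CPM. Of 114 listed pathway genes, 113 were matched by symbol. Alternatives used other tools (limma-voom, DESeq2), other scaling (upper-quartile or RLE factors, unscaled totals), other filters (none, or 10 counts required of every liver), library sizes without the 10 most abundant genes, a robust fit, coding in place of exon length, and leaving out each mouse. The ratios to Apoa5 and the pathway lists without Hnf4a were chosen later, with the values known.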

Additional observations from a re-analysis of the deposited data

Results flagged for a closer look

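In 40 combinations of gene and group, 2 livers stood apart from the other 4 of their group by Dixon's ratio of the gap to the range, and chance flags about 1 in 20. Apob in NCACS mouse 15, at 7604 CPM against 5281 CPM in the next liver, had a ratio of 0.796. Foxo1 in NCACS mouse 13, at 25.6 CPM against 36.9 CPM in the next liver, had a ratio of 0.752.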

How the results depend on the processing

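The number of the 10 genes past the threshold, 1 (higher in CACS livers), became 0 with upper-quartile factors, with raw library totals, without a filter and with library sizes that omit the 10 most abundant genes, and was 0 to 1 over fits without 1 mouse. The corresponding adjusted p-values of Apoa5 were 0.0520, 0.0522, 0.0641 and 0.0501, and it kept its direction in all 19 alternatives. The pathway lists had 5 genes past the threshold, 3 higher and 2 lower, which became 16 (7 and 9) with DESeq2 and 2 (1 and 1) without a filter, and when single mice were left out 0 to 5 in all, 0 to 2 higher and 0 to 3 lower, with 0 without mouse 11, 14, 16 or 19 and 5 without mouse 17. Over all genes 538 passed in the main setting, 1386 with DESeq2 and 178 to 519 with a mouse left out. The cause of these changes was not tested, and the fits with a mouse left out also had fewer livers.

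The estimate changed sign for 2 genes, neither of which passed the test. Apoc3 was above 0 without mouse 14, 16 or 17, and over fits without 1 mouse its log2 fold change was -0.060 to 0.080 in edgeR and its difference in mean log2 CPM -0.056 to 0.076, with 0.0061 for raw library totals. Apoa4 was below 0 without mouse 18, and over the same fits its log2 fold change was -0.23 to 0.83 and its difference in mean log2 CPM -0.048 to 0.66. The unadjusted exact permutation p of Apob was above 0.05 without mouse 15, 16, 17, 19 or 20, with a range of 0.00794 to 0.151. That of Apoa1, 0.0556, fell to 0.0317 without mouse 11 and to 0.0397 without mouse 17, with a range of 0.0317 to 0.135. That of Apoa2, 0.246, fell to 0.0159 without mouse 13, with a range of 0.0159 to 0.5. The other 8 members kept their direction in all alternatives. No paired analysis was possible because no mouse number occurs in both groups. With 5 mice a group, intervals of members that did not pass reached 0.76 for Apoa1 and 1.36 for Apoa4 on the log2 scale and -0.64 for Apob, so these data leave differences of such sizes within the intervals.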
